A study of Mus musculus with 6 samples.

Results

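The genes described here encode the machinery that fuses a secretory granule with the plasma membrane, and they were taken from the array annotation by their family names. Included were the synaptotagmins (Syt), syntaxins (Stx), syntaxin-binding proteins (Stxbp), VAMPs, SNAP-25 relatives, Rab3, RIM, Unc13 and complexin genes, together with Pclo, Bsn, Doc2b, Cadps and Cadps2. The annotation gave 74 probe sets with 1 such symbol, and these stood for 69 of the 22180 genes in the table. The names do not select exocytosis alone, since 12 of the 69 are SNAREs of the Golgi, the endosomes or the ER.

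Expression was measured on arrays of pancreatic islets from mice aged 5 weeks, with 3 arrays of Sel1L-deficient islets and 3 of wildtype islets. Sel1L is the adaptor of the HRD1 ubiquitin ligase, which removes misfolded proteins from the ER. The Sel1L-deficient mice carried floxed Sel1L alleles and Cre inserted at the Ins1 locus (Ins1Cre), so that the gene was deleted in β cells, while the controls labelled wildtype were littermates listed as Sel1L f/f, with no Cre named. Carriage of Cre and loss of Sel1L therefore cannot be told apart. Both groups were on the C57BL/6J background, fed regular chow, and their hand-picked islets recovered overnight in culture before RNA extraction. Whole islets also hold cells in which Sel1l was not deleted. Whether an array held 1 animal or several is not given in the sources used here, and the p-values cover only the variation among these 6 samples, which may be technical.

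A β cell releases insulin when calcium enters through voltage-gated channels and granules fuse. A vesicle SNARE (a VAMP) zips together with a syntaxin and a SNAP-25 relative on the plasma membrane, and the Munc18 proteins (Stxbp genes), Munc13 proteins (Unc13 genes) and CAPS proteins (Cadps genes) prepare this complex. Synaptotagmins with calcium-binding C2 domains trigger the fusion, complexins hold or assist it, and Rab3 with RIM proteins brings granules to their release sites.

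Values are log2 RMA summaries as deposited, and a difference is Sel1L-deficient minus wildtype on that scale. Array medians lay between 3.08 and 3.16, and 56 of the 69 genes had a mean over the 6 arrays above the highest of them. The table carries no detection call, so the other 13 were not separated from background. Sel1l read 7.73, 7.65 and 7.68 on the Sel1L-deficient arrays, against 8.46, 8.56 and 8.76 on the wildtype arrays, in the direction of the labels. All 6 samples are labelled female, but replicate 3 of each genotype had male-type transcripts: Xist, high in female cells, had values of 3.08 (Sel1L-deficient) and 2.93 (wildtype) there, against 9.93 to 10.4 on the remaining 4 arrays. The β-cell check list had 10 of 11 markers measured, and all 10 had a negative difference. Of these, 4 fell, against 0.153% of all genes: Mafa (-2.11), Ucn3 (-2.00), Slc2a2 (-1.38) and G6pc2 (-0.91). The other 6 did not pass, with Pdx1 at -0.66, Nkx6-1 at -0.56 and Ins2 at -0.50. Iapp (-0.089), Slc30a8 (-0.073) and Glp1r (-0.055) differed least. The summed linear level of the list was 11608 to 11906 in Sel1L-deficient islets and 14383 to 16325 in wildtype islets. Endothelial markers (10 of 10 measured) summed to 1788 to 2049 in Sel1L-deficient islets and 1211 to 1599 in wildtype islets. Mesenchymal markers (9 of 9) summed to 473 to 562 in Sel1L-deficient and 307 to 450 in wildtype islets. All differences in both lists were positive, and 0 passed. The log2 list medians of Sel1L-deficient and wildtype arrays overlapped. They were 6.80 to 7.08 against 6.37 to 6.90 (endothelial) and 5.25 to 5.59 against 4.18 to 5.52 (mesenchymal). The 4 measured of 7 α-cell markers summed to 10056 to 10551 in Sel1L-deficient and 9508 to 9817 in wildtype islets. All 4 differences were positive and 0 passed, and the list medians overlapped (9.15 to 9.29 against 8.86 to 9.18). The 5 of 8 Schwann cell and nerve markers summed to 105 to 128 in Sel1L-deficient and 132 to 158 in wildtype islets. Their list medians overlapped (3.02 to 3.82 against 2.96 to 3.30) and 0 passed. Th, the brightest of the 5, differed by -0.31 and Sox10 by 0.24, with 4 differences negative and 1 positive. Summed levels of δ, PP and ε cell (7 of 7 measured), acinar (7 of 9) and leukocyte markers (6 of 7) overlapped between genotypes, and acinar markers were highest on replicate 3 of each. In whole islets, fewer cells of a type, less RNA per cell and a change in single genes cannot be told apart. The part of these shifts in the results below was not tested.

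Most of the fusion machinery did not pass the test. One gene, the synaptotagmin Syt5, fell in Sel1L-deficient islets, none rose, and 68 did not pass (limma, Benjamini-Hochberg adjusted p under 0.05 over all 22180 genes). Over all genes the same threshold called 54, or 0.243%, with 0.0902% higher and 0.153% lower in Sel1L-deficient islets, so 1 call in 69 rests on that 1 gene and says nothing of the set. The median difference was -0.0081 over the 69 genes and 0.00044 over all genes. Of the 69, 31 differences were positive and 38 negative, 50 were smaller than 0.2 in size (72.5%, against 74.3% of all genes), and 6 reached 0.5 (8.70%, against 2.80% of all genes). An unadjusted limma p under 0.05 was found for 10 of the 69 (14.5%) and for 9.48% of all genes.

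The groups did not overlap in 16 of the 69 genes. All Sel1L-deficient values lay below all wildtype values in 11 of them, where the background over all genes was 7.84%, and above in 5, where it was 7.22%. For genes other than Syt5 such a gap is a description of 3 against 3 arrays, since none of them passed the adjusted threshold.

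**Figure D1:**
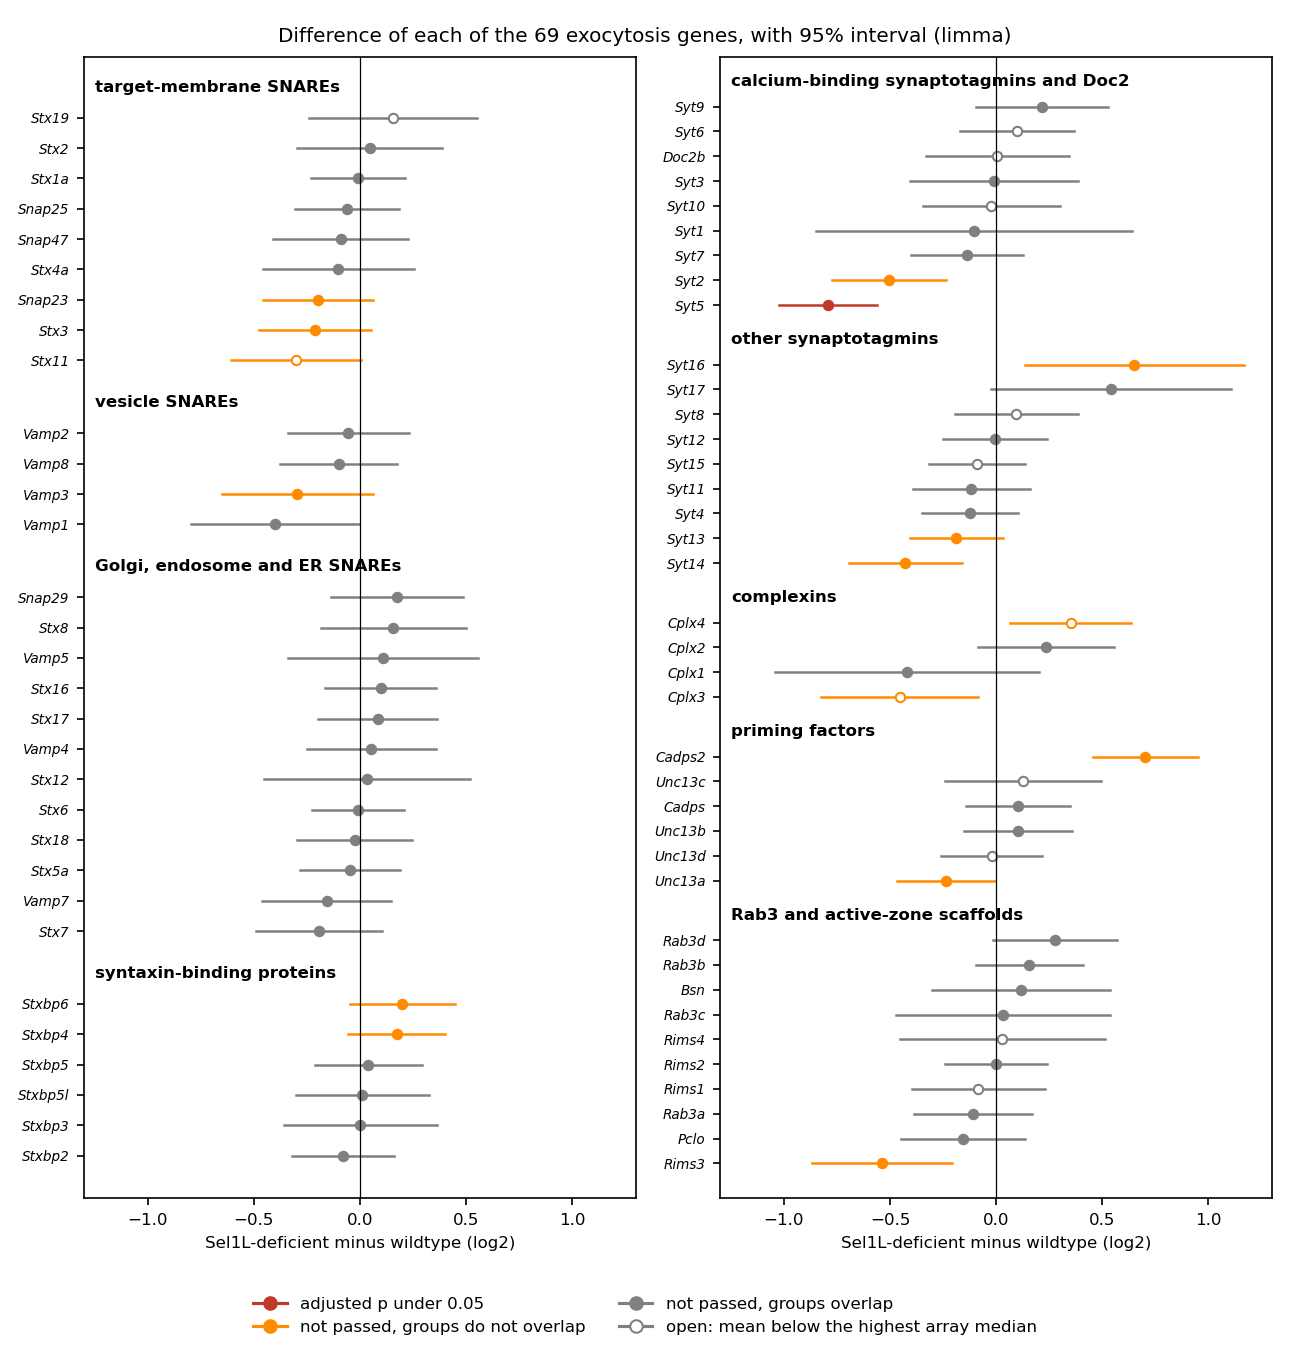
Difference (Sel1L-deficient minus wildtype, log2; points) of the 69 exocytosis genes by role, with limma's 95% interval (lines). The interval of Syt5 (-1.02 to -0.56) and that of Cadps2 (0.46 to 0.95) are those whose nearer end lies furthest from 0 on either side, while most intervals include 0; open points had means below the highest array median of 3.16.

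Syt5, a synaptotagmin of dense-core and synaptic vesicles that binds calcium, was the gene that fell (NCBI gene 53420, mouse chromosome 7). It read 7.37, 7.31 and 7.26 on the Sel1L-deficient arrays, against 8.01, 8.15 and 8.15 on the wildtype arrays. The lowest wildtype array lay 0.64 above the highest Sel1L-deficient array. The means were 7.31 ± 0.06 in Sel1L-deficient and 8.10 ± 0.08 in wildtype islets (SD, n = 3 each), 1.73-fold lower in Sel1L-deficient islets, with a difference of -0.79 ± 0.10 (SE; limma adjusted p = 0.032). The call was lost when any 1 of the 6 arrays was left out (adjusted p = 0.0843 to 0.145), with differences of -0.84 to -0.77 in those fits. On the 4 arrays without male-type transcripts the difference was -0.74 (limma adjusted p = 0.236). The names Syt5 and Syt9 have been exchanged in parts of the literature, so that work under either name needs the gene identifier.

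The other calcium-binding synaptotagmins did not pass. Syt2, a fast sensor of hindbrain and neuromuscular synapses, had the next lowest difference of these genes. It read 3.86, 4.12 and 3.91 on the Sel1L-deficient arrays, against 4.53, 4.54 and 4.33 on the wildtype arrays. Its groups did not overlap, with a difference of -0.51 ± 0.12 (SE; limma adjusted p = 0.217). Syt7, a slow, high-affinity sensor used in insulin secretion, read 7.90, 7.78 and 7.86 on the Sel1L-deficient arrays and 7.96, 7.83 and 8.15 on the wildtype arrays. These values overlap, and the difference of -0.14 has a 95% interval of -0.40 to 0.13, so a fall as large as that of Syt5 lies outside it. Syt9 read 5.92, 5.85 and 5.64 in Sel1L-deficient islets and 5.81, 5.48 and 5.47 in wildtype islets, a difference of 0.22 with an interval of -0.09 to 0.53. Syt1, the fast sensor of forebrain synapses, differed by -0.10 with a wide interval of -0.85 to 0.64, and its arrays ranged over 4.64 to 5.80 in Sel1L-deficient and 4.68 to 5.56 in wildtype islets. Syt3, Syt6, Syt10 and Doc2b differed by -0.022 to 0.098, and the means of Syt6, Syt10 and Doc2b were below the highest array median. Of the 9 measured genes of this group, 1 fell, 0 rose and 8 did not pass, where 0.153% of all genes fell and 0.0902% rose.

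**Figure D2:**
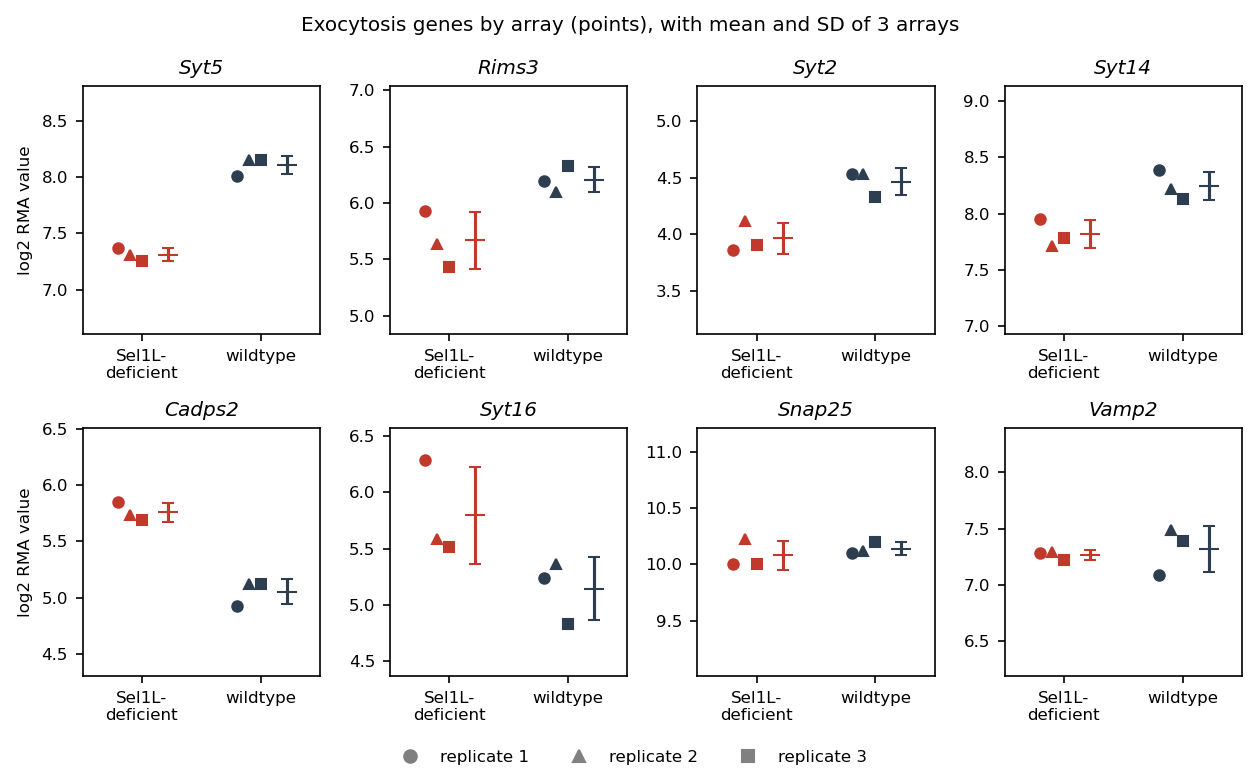
log2 RMA value (vertical axis, same span of 2.2 in each panel) of 8 exocytosis genes on the 3 Sel1L-deficient arrays (left) and the 3 wildtype arrays (right); symbols mark the replicate and bars the mean and SD. Syt5, Rims3, Syt2 and Syt14 lie lower and Cadps2 and Syt16 higher on all Sel1L-deficient arrays, while Snap25 and Vamp2 overlap.

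None of the 9 synaptotagmins outside that group passed, and the genotypes did not overlap in 3 of them, where the background over all genes was 15.1%. Syt14 read 7.95, 7.71 and 7.79 on the Sel1L-deficient arrays, against 8.38, 8.22 and 8.13 on the wildtype arrays, with a difference of -0.43 ± 0.12 (SE; limma adjusted p = 0.292). Syt13, a synaptotagmin abundant in endocrine cells, read 9.69, 9.68 and 9.68 in Sel1L-deficient islets and 9.81, 9.89 and 9.92 in wildtype islets. The spread among its Sel1L-deficient arrays was small, and its difference of -0.19 had an interval of -0.41 to 0.03. Syt16, a relative of Syt14, went the other way, with 6.29, 5.59 and 5.51 on the Sel1L-deficient arrays, against 5.24, 5.37 and 4.83 on the wildtype arrays. Its difference of 0.65 ± 0.22 (SE; limma adjusted p = 0.404) was 0.41 without Sel1L-deficient replicate 1, the array with the highest value, and 0.79 without Sel1L-deficient replicate 3, its lowest Sel1L-deficient array. Syt17, also called B/K, differed by 0.54 but overlapped, with 4.32, 5.34 and 4.92 in Sel1L-deficient and 4.29, 4.08 and 4.59 in wildtype islets. Syt4, which lacks a calcium-binding residue in one of its C2 domains, differed by -0.13 on its brightest probe set and by 0.14 and 0.037 on the other 2. Syt8, Syt11, Syt12 and Syt15 differed by -0.12 to 0.094.

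Among the priming factors, Cadps2 stood just outside the threshold with the largest positive difference of the 69 genes. Cadps2 (NCBI gene 320405, mouse chromosome 6) encodes CAPS2, which primes dense-core granules. It read 5.85, 5.74 and 5.68 on the Sel1L-deficient arrays, against 4.92, 5.12 and 5.12 on the wildtype arrays. The groups were well apart, at 5.76 ± 0.08 in Sel1L-deficient and 5.05 ± 0.11 in wildtype islets (SD, n = 3 each), a 1.63-fold higher value with a difference of 0.70 ± 0.11 (SE; limma adjusted p = 0.0568). Over 15 other settings its adjusted p ran from 0.0347 to 0.253, and it passed in 2 of them. On the 4 arrays without male-type transcripts the difference was 0.77 (limma adjusted p = 0.246).

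Its paralogue Cadps, which encodes CAPS1, read 9.12, 9.02 and 8.97 in Sel1L-deficient islets and 8.93, 9.05 and 8.83 in wildtype islets. These overlap, and the difference of 0.10 has an interval of -0.14 to 0.35, which lies wholly below the interval of Cadps2 (0.46 to 0.95). The difference between the paralogues was not tested. Unc13a, which encodes Munc13-1, read 6.64, 6.63 and 6.60 on the Sel1L-deficient arrays, against 6.75, 6.91 and 6.92 on the wildtype arrays. Its groups did not overlap, with a difference of -0.24 ± 0.10 (SE; limma adjusted p = 0.511). Unc13b, which encodes Munc13-2, overlapped with a difference of 0.10 and an interval of -0.15 to 0.36. Unc13c and Unc13d differed by 0.13 and -0.022, with means below the highest array median. Of the 6 priming genes 0 passed.

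The long RIM proteins tether granules to calcium channels. Rims3, which encodes a short RIM isoform, RIM3γ, had the lowest difference after Syt5. It read 5.93, 5.64 and 5.44 on the Sel1L-deficient arrays, against 6.20, 6.10 and 6.33 on the wildtype arrays. The groups did not overlap, and the difference was -0.54 ± 0.14 (SE; limma adjusted p = 0.279). Rims2, which encodes the main RIM of β cells, differed by -0.00078 with an interval of -0.24 to 0.24, and read 7.27, 7.36 and 7.31 in Sel1L-deficient and 7.18, 7.41 and 7.36 in wildtype islets. The scaffold gene Pclo (piccolo) read 9.19, 9.19 and 8.84 in Sel1L-deficient and 9.33, 9.20 and 9.16 in wildtype islets, a difference of -0.16 with overlapping groups.

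The Rab3 GTPases sit on secretory granules. Rab3d read 7.51, 7.15 and 7.53 on the Sel1L-deficient arrays and 7.13, 7.16 and 7.07 on the wildtype arrays. Its groups overlapped through Sel1L-deficient replicate 2, with a difference of 0.28 (limma adjusted p = 0.548). On its second, dimmer probe set the difference was 0.49, with no overlap (limma adjusted p = 0.295 in the fit of all probe sets). Rab3b, with 7.56, 7.37 and 7.38 in Sel1L-deficient and 7.40, 7.18 and 7.27 in wildtype islets, differed by 0.16. Rab3a and Rab3c differed by -0.11 and 0.032, with 0.23 on the second probe set of Rab3c. Bsn (bassoon) differed by 0.12, and by 0.34 on a probe set with a mean below the highest array median. Rims1 and Rims4 differed by -0.084 and 0.030, with means below the highest array median. Of these 10 Rab3, RIM and scaffold genes 0 passed.

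Promoter windows are shown for 4 genes for which the RefSeq table of GRCm38.p6 lists a single start. They have the largest differences among such genes whose groups do not overlap and whose mean lay above the highest array median. Unc13a was added because its window matched both parts of RE1. Each window runs from 250 bases before to 50 bases after a listed start, 5′ to 3′ on the gene's strand. Syt5 has no entry there. Capitals mark every match, on either strand, to the GC box GGGCGG, the core TGACG or whole site TGACGTCA of the cyclic AMP response element (CRE), the TATA box TATAAA, and the parts TTCAGCACC and GGACAGCG of RE1, the element bound by the repressor REST, of which many exocytosis genes of neurons are known targets. The core lies within the whole CRE, so both mark the same bases. The windows are Cadps2 at chr6:23839372-23839671 (minus strand), Rims3 at chr4:120854549-120854848 (plus strand), Syt14 at chr1:193035726-193036025 (minus strand), Syt16 at chr12:73997527-73997826 (plus strand) and Unc13a at chr8:71671708-71672007 (minus strand).
Cadps2: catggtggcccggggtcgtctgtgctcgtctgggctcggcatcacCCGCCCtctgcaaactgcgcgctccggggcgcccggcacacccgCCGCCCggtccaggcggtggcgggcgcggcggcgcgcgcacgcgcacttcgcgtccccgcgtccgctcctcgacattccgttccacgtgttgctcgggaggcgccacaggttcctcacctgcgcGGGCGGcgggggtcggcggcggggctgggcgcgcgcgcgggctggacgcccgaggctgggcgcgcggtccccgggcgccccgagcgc
Rims3: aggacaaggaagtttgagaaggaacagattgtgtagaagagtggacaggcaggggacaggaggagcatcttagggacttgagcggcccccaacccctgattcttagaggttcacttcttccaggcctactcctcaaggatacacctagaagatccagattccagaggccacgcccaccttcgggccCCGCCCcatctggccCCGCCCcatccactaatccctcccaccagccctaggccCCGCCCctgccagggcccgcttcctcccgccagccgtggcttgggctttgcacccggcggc
Syt14: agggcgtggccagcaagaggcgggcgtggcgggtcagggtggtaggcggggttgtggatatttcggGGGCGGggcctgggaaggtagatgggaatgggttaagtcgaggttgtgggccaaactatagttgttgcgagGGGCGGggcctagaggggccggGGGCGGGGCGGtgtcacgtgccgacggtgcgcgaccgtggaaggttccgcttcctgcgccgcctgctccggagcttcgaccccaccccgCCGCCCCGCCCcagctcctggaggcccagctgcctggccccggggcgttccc
Syt16: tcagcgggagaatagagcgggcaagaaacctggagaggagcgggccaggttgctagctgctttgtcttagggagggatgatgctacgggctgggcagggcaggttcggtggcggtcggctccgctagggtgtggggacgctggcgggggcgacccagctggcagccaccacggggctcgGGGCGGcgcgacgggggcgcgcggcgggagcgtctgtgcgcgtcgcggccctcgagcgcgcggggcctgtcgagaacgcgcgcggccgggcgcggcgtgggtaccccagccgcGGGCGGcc
Unc13a: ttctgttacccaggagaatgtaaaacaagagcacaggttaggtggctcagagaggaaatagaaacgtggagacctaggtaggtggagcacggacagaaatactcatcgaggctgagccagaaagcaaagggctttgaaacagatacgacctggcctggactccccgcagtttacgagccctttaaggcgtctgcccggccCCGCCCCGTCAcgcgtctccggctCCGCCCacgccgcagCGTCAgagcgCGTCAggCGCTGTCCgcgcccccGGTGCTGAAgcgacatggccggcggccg

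All 5 windows were rich in G and C, against a median of 52.7% over all windows of the table. G and C made up 79.7% in Cadps2, 62.3% in Rims3, 71.3% in Syt14, 75.0% in Syt16 and 61.3% in Unc13a. The median over the windows of the exocytosis genes was 63%, above the values of Rims3 and Unc13a. GC boxes stood in each of the 5, in the genes with the higher values and in those with the lower values alike, and no TATA box was matched in any. Over the 66 windows listed for 54 of the 69 genes, 68.2% held a GC box, against 35.7% of all 32851 windows, and 4.55% held a TATA box, against 13.6%. The CRE core was in 24.2% of the genes' windows and in 20.8% of all. The Unc13a window was the 1 of 66 with the first RE1 part, and it also held the second, both just after the start. The parts were searched for separately and their spacing was not tested, so a whole RE1 was not shown. The second part stood in 4 of the 66 windows, listed for Stx5a, Syt6 and Unc13a. Over all windows 0.371% held the first part and 1.26% the second. A match describes the letters only.

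Core SNAREs of granule fusion overlapped between genotypes or differed little. Snap25, the plasma-membrane SNARE of regulated secretion, read 10.01, 10.23 and 10.01 on the Sel1L-deficient arrays and 10.10, 10.12 and 10.20 on the wildtype arrays. The groups overlap, and the difference of -0.061 has an interval of -0.31 to 0.19. Its value lies in the upper part of the scale, where RMA values can be compressed. Stx1a, its syntaxin partner, read 4.84, 4.86 and 4.79 in Sel1L-deficient islets and 4.79, 4.90 and 4.83 in wildtype islets, a difference of -0.0081 with an interval of -0.23 to 0.21. Vamp2, the vesicle SNARE of insulin granules, read 7.28, 7.29 and 7.22 in Sel1L-deficient and 7.09, 7.48 and 7.39 in wildtype islets, a difference of -0.054 with an interval of -0.34 to 0.23. For these 3 genes the arrays of a genotype differed among themselves by more than the genotypes did.

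None of the other target-membrane and vesicle SNAREs passed. All 4 vesicle SNAREs had negative differences, from -0.40 for Vamp1 to -0.054 for Vamp2, and so had 7 of the 9 target-membrane SNAREs. Over all 22180 genes, 11066 differences were negative. Genes measured on the same 6 arrays are not independent, and these signs were not tested. Stx3, used in granule-to-granule fusion, read 7.00, 7.28 and 7.30 on the Sel1L-deficient arrays, against 7.38, 7.40 and 7.42 on the wildtype arrays. Its groups were apart by little, with a difference of -0.21 (limma adjusted p = 0.637) that was -0.11 without Sel1L-deficient replicate 1. Snap23, the broadly expressed relative of Snap25, read 7.40, 7.18 and 7.45 in Sel1L-deficient and 7.58, 7.60 and 7.46 in wildtype islets. The highest Sel1L-deficient and the lowest wildtype value nearly touch, and the difference was -0.20 (limma adjusted p = 0.655), or -0.12 without Sel1L-deficient replicate 2. Vamp3, cellubrevin, read 6.16, 6.61 and 6.75 in Sel1L-deficient and 6.86, 6.79 and 6.75 in wildtype islets, a difference of -0.30 that was -0.12 without Sel1L-deficient replicate 1, its lowest array. Vamp8, a SNARE of newcomer granules, overlapped at -0.10. Stx11 was also lower on all Sel1L-deficient arrays, with a mean below the highest array median, and Stx2, Stx4a, Stx19 and Snap47 overlapped. Over all genes, 7.84% were lower on all Sel1L-deficient arrays.

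Proteins that bind syntaxins differed little. Stxbp6 (amisyn) read 5.72, 5.51 and 5.55 on the Sel1L-deficient arrays, against 5.39, 5.47 and 5.31 on the wildtype arrays. Stxbp4 (Synip) read 5.18, 5.03 and 5.02 in Sel1L-deficient islets and 4.87, 4.92 and 4.93 in wildtype islets. Both were higher on all Sel1L-deficient arrays, by 0.20 and 0.17, without passing (limma adjusted p = 0.63 and 0.662). Over all genes, 7.22% were higher on all Sel1L-deficient arrays. The Munc18 genes Stxbp2 and Stxbp3 differed by -0.080 and 0.0021, and the tomosyn genes Stxbp5 and Stxbp5l, whose products hold back SNARE assembly, by 0.039 and 0.011. All 4 overlapped, with intervals between -0.36 and 0.36 in total. Of the 6 measured genes 0 passed.

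Complexins clamp or promote the assembled SNARE complex. Cplx2, the complexin of endocrine cells, read 8.08, 8.04 and 8.09 on the Sel1L-deficient arrays and 8.06, 7.55 and 7.90 on the wildtype arrays. Its difference of 0.23 was 0.09 without wildtype replicate 2, the lowest array. Cplx1, with 2.87, 3.67 and 3.18 in Sel1L-deficient and 3.22, 3.57 and 4.20 in wildtype islets, overlapped, with a difference of -0.42 and an interval of -1.04 to 0.20. Single arrays moved that difference, to -0.15 without wildtype replicate 3 and to -0.64 without wildtype replicate 1. Cplx3 and Cplx4, complexins of the retina, had groups apart at -0.46 and 0.35 with means below the highest array median, where a value was not separated from background. None of the 4 complexin genes passed. Over all genes, 15.1% had groups that did not overlap.

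None of the 12 SNAREs of the Golgi, endosomes and ER passed. All 12 overlapped between genotypes, where 15.1% of all genes did not, with differences from -0.19 for Stx7 to 0.17 for Snap29 and a median of 0.044. Stx6, a trans-Golgi syntaxin, read 7.51, 7.52 and 7.43 in Sel1L-deficient islets and 7.50, 7.51 and 7.47 in wildtype islets, with an interval of -0.22 to 0.21. Stx5a, the syntaxin of ER-to-Golgi traffic, differed by -0.047 with an interval of -0.28 to 0.19. In both genes the arrays of the 2 genotypes were interleaved.

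**Figure D3:**
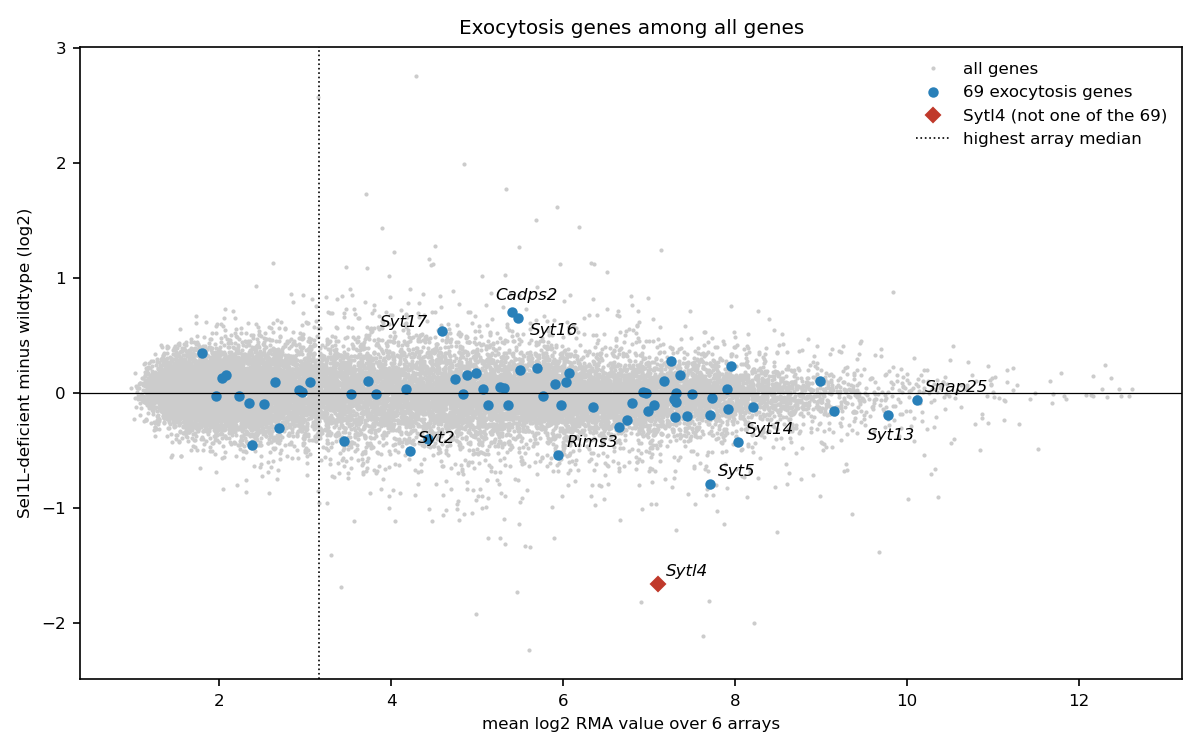
Difference (Sel1L-deficient minus wildtype, log2, vertical axis) against mean log2 RMA value over 6 arrays (horizontal axis) for all genes of the table (grey) and the 69 exocytosis genes (blue). Syt5 is the lowest and Cadps2 the highest of the 69, and Sytl4, outside the 69, lies lower at -1.66.

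Neighbouring genes of the secretory pathway were taken from 7 lists by function, with 62 of 64 genes measured. In all, 1 fell, 0 rose and 61 did not pass, where 0.153% of all genes fell and 0.0902% rose. That 1 call rests on 1 gene and says nothing of the lists. The median difference was -0.046, against 0.00044 over all genes. The gene that fell was Sytl4, which encodes granuphilin, a Rab27 effector that docks insulin granules and binds Stx1a and Munc18. It read 6.06, 6.05 and 6.70 on the Sel1L-deficient arrays, against 8.03, 7.69 and 8.07 on the wildtype arrays. Its groups were 0.99 apart at the nearest values, with a difference of -1.66 ± 0.20 (SE; limma adjusted p = 0.0264), and the call was lost in 5 of the 6 fits without 1 array, all but that without Sel1L-deficient replicate 3 (adjusted p = 0.0191 to 0.134).

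The partner GTPase gene Rab27a read 9.48, 9.35 and 9.35 in Sel1L-deficient and 9.57, 9.41 and 9.25 in wildtype islets, a difference of -0.016. The other Rab27 effectors differed by -0.70 (Mlph, overlapping) to 0.17. The 4 SNARE disassembly genes had negative differences of -0.27 to -0.032, with Nsf, the ATPase itself, at -0.032. None of the 4 passed, and 11066 of all 22180 genes had negative differences. Exocyst subunits, which tether vesicles, differed by -0.14 to 0.016. None of the 12 SNAREs outside the family names passed, with 5 positive and 7 negative differences and a median of -0.061. Use1 (0.40), Gosr1 (0.31) and Sec22b (0.26) were higher on all Sel1L-deficient arrays and Bet1 (-0.16) lower on all of them, against 7.22% higher and 7.84% lower over all genes (limma adjusted p = 0.40, 0.543, 0.475 and 0.717). Sec22c and Ykt6 differed by -0.30 and -0.23 with overlapping groups. Use1 read 7.80, 8.13 and 8.03 in Sel1L-deficient islets, against 7.78, 7.41 and 7.58 in wildtype islets. The gap between its groups was narrow at the nearest arrays. Madd, a Rab3 exchange factor, and Vps33b, a Sec1-type protein, were lower on all Sel1L-deficient arrays, with differences of -0.34 and -0.37, without passing (limma adjusted p = 0.387 and 0.348).

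**Figure D4:**
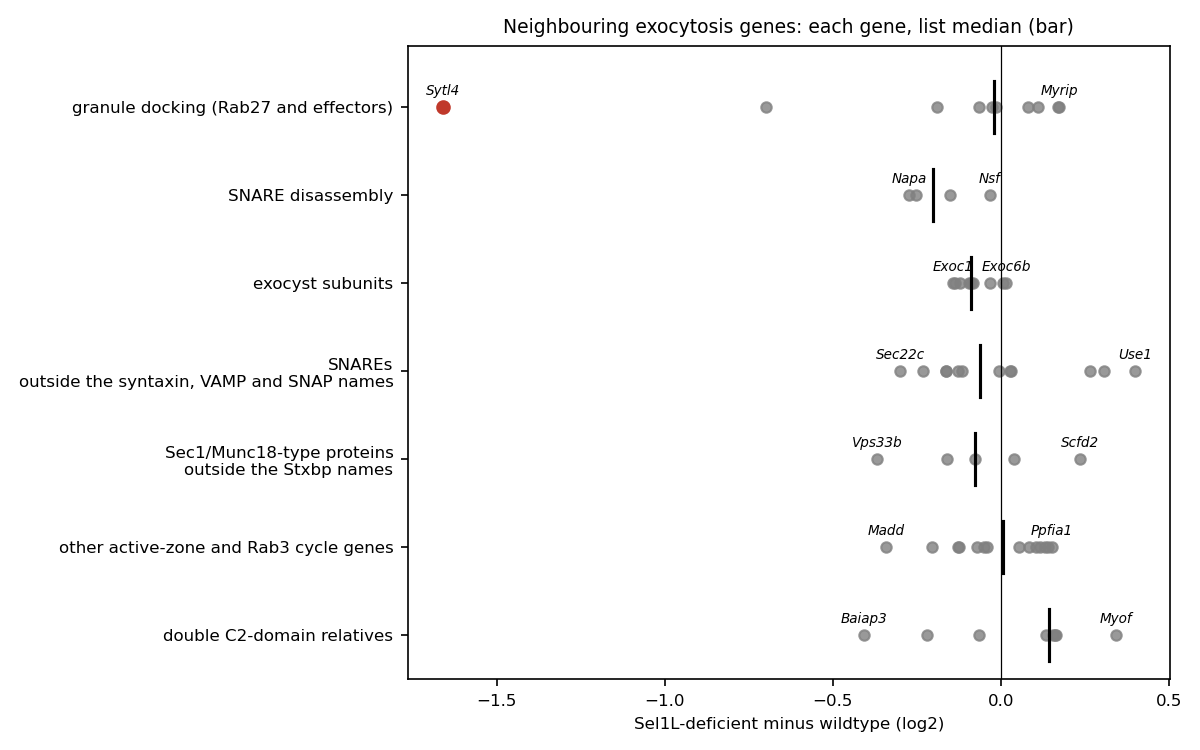
Difference (Sel1L-deficient minus wildtype, log2, horizontal axis) of each measured gene in 7 lists of neighbouring secretory genes, with the list median as a bar and the lowest and highest gene named. Sytl4 (red) is the 1 of 62 genes past the adjusted threshold, which 0.243% of all genes passed. The other genes lie between -0.70 and 0.40.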

How the data were processed

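Per the submitters' processing notes, the authors summarised the arrays with RMA; version, filters and log base were not stated in the labels. From their range, the deposited values were read as log2, since every one lay between 0.526 and 13.0. RMA can compress large ratios. Gene symbols came from the platform's annotation. All 69 genes matched the RefSeq table of GRCm38.p6 by Entrez identifier, with 0 symbols changed. A gene was represented by its single-symbol probe set with the highest mean over 6 arrays. Another 3 probe sets that pair such a symbol with a second gene were left out. Levels of different probe sets served to choose that probe set, to rank the brightest genes of a role and to sum marker lists. They do not measure the relative amounts of different transcripts.

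Differences were fitted for all 22180 genes with limma 3.58.1 in R 4.3.3 (lmFit, eBayes, two-sided, no covariate), with Benjamini-Hochberg adjustment over all genes and intervals at 95%. An exact permutation test of 3 against 3 arrays cannot go below 0.1 and was not used. The script was tested on simulated normal values with each gene's observed spread. It called 14.8% of added differences of 0.5, 72.3% of those of 1 and 95.2% of those of 2. A gene that did not pass may therefore still differ. The genes and lists were chosen with earlier results of these data known.

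The text names Sel1l, each called gene, genes whose groups do not overlap and whose mean lay above the highest array median (13, of up to 16), and the 3 brightest genes of each role. Members with several probe sets are given by probe set. All other genes were named, and promoter motifs chosen, after values were seen. In all, 15 alternatives were run.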

Additional observations from a re-analysis of the deposited data

How the results depend on the processing

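With 3 arrays per genotype, the number of arrays limits the precision. Syt5 was the gene that passed in 7 of 15 alternatives, and Cadps2 joined it in 2. The count of exocytosis genes that rose was 0 under the main setting and 1, Cadps2, when only genes above the highest array median were tested (limma adjusted p = 0.0347) or with an intensity trend in the prior (0.0367). The count that fell was 1, and 0 with the replicate block (Syt5, limma adjusted p = 0.0724), on the 4 arrays without male-type transcripts (0.236), and in all 6 fits that left out 1 array, a range of 0 to 0. The fits without 1 array also called 4 to 29 of all genes, against 54. Neighbouring genes that fell numbered 1, and 0 on the 4 arrays (Sytl4, limma adjusted p = 0.0891) and 0 to 1 without 1 array. The median difference of the 69 genes, -0.0081, ranged over -0.068 (without Sel1L-deficient replicate 2) to 0.0030 (without wildtype replicate 2). Leaving out 1 array gave 0 rises throughout. The cause of the lost calls was not tested, beyond the fewer arrays those fits hold.

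Replicate numbers were not taken as pairs: deviations from the group means correlated at 0.105, 0.072 and 0.21 for equal numbers, not all above 0.1, although each array correlated best with its own number. The replicate block called 36 of all genes. With the covariate for sex-linked transcripts Syt5 kept its call (limma adjusted p = 0.0443). Over the 35 named genes, 7 changed sign in some setting, 0 of them called, and none had a difference above 0.13 in size under the main setting.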
